A study of Homo sapiens with 3 samples.

Results

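The genes described here are 40 components of NF-κB and toll-like receptor (TLR) signalling, chosen as a list of names: 16 receptor adaptors and kinases, 5 Rel subunits, 11 inhibitors, and 8 feedback targets. The list and its classes were chosen with earlier results of these data known. The members were taken from 41810 named genes on the array, where 50 probes carried one of their names, and each gene was read from its brightest probe. RNA from THP-1 cells, a human monocytic leukemia line, was measured on 3 one-color oligonucleotide arrays of 1 slide. All cells had been turned into macrophages with the phorbol ester PMA at 100 ng/mL for 24 to 36 h and then kept overnight in fresh medium. The Ctrl array held untreated macrophages, the IMQ array held macrophages activated with imiquimod (IMQ), a small-molecule TLR ligand, and the IMQ+DMD array held macrophages given DMD, a phenol of the fungus Antrodia cinnamomea, before IMQ. In the labels the last array carries an X in place of a name, which is taken here for DMD, the single compound besides IMQ that the series names. They give 4 h for every array and no dose, whereas the study's methods for THP-1 cells in general give 10 μg/mL of IMQ for 24 h after 1 h of DMD.

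There was 1 array per condition of a single cell line, so no difference below has a replicate check and no p-value was computed. No array of cells given DMD alone was analysed here. Between 66.6% and 72.0% of the probes on an array were well above background, a quality mark that the scanner software gives. Of 8 macrophage and monocyte markers, 6 were found on the array under their symbol (CD14, ITGAM, CSF1R, SPI1, FCGR2A, and CTSS), and all 6 were well above background on every array. The epithelial markers EPCAM and CDH1 and the fibroblast marker COL1A2 were not well above background on any array. Of these lists, 0 to 1 of 3 epithelial and 2 of 3 fibroblast markers were well above background on each array. By contrast, 3 of 3 T-cell and 3 of 3 B-cell markers were well above background on every array, at log2 levels from 6.38 to 12.04. The part of these lymphocyte probe signals in the results was not tested.

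IMQ is recognized by TLR7, an endosomal receptor that signals through the adaptor MyD88. MyD88 gathers IRAK kinases and the ubiquitin ligase TRAF6, which lead through the kinase TAK1 to the IκB kinase complex. This complex marks IκB proteins for degradation and so frees dimers of Rel subunits to enter the nucleus. Many NF-κB target genes encode inhibitors of the same pathway, and in macrophages they form a well-known feedback loop.

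After IMQ, most inhibitors and feedback targets and all Rel subunits but RELA were at least 2-fold higher than in Ctrl, whereas only IRAK2 and MAP3K8 were so among the receptor adaptors and kinases. Levels are log2 values of quantile-normalized intensity, and a difference of 1 is a 2-fold difference. Of the 40 members, 21 were at least 2-fold higher on the IMQ array than on the Ctrl array and 0 were at least 2-fold lower, beside 4.23% higher and 3.67% lower among the 30874 named genes compared. Under all 6 ways of scaling the arrays, 17 of the 21 were at least 2-fold higher, and NFKB2, NFKBID, TNIP2, and TNIP3 fell below 2-fold under at least 1 of them. The median difference was 1.07 for the members and -0.02 for all named genes compared. Since the members were chosen with earlier results of these data known, these counts and medians describe the list and are no independent comparison. Between IMQ+DMD and IMQ, 0 members were 2-fold higher and 0 were 2-fold lower, beside 1.2% and 1.24% of 30709 genes, and the medians were -0.06 and 0.01. Between IMQ+DMD and Ctrl, 20 members were 2-fold higher and 0 were 2-fold lower, beside 3.14% and 4.9% of 32635 genes, and the medians were 1.05 and 0.05. Any pair of these comparisons shares an array, so their values are not independent and are given side by side.

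**Figure D1:**
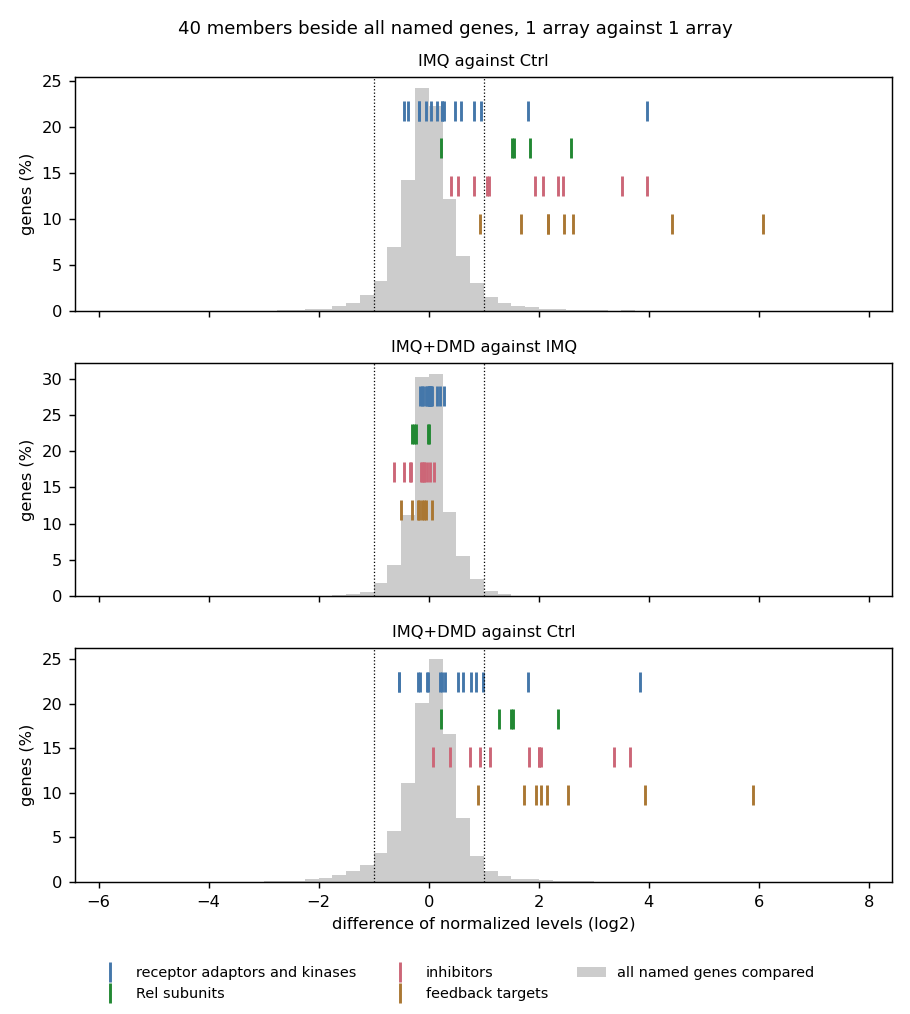
Differences of normalized log2 levels (x axis) for the 40 members, as ticks colored by role, over the distribution of all named genes compared (grey bars, percent of genes on the y axis), with dotted lines at a 2-fold difference. In IMQ against Ctrl 21 ticks lie beyond the upper line and 0 beyond the lower one, and in IMQ+DMD against IMQ all 40 lie between the lines.

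The classes differed in how many members passed 2-fold after IMQ. It was 2 of 16 receptor adaptors and kinases, 4 of 5 Rel subunits, 8 of 11 inhibitors, and 7 of 8 feedback targets. Their median differences were 0.25, 1.54, 1.94, and 2.30 in this order. On the IMQ+DMD array against Ctrl, the counts were 2, 4, 7, and 7, and the medians were 0.28, 1.49, 1.82, and 2.09. The scale of the arrays bore on these values, because the median of all named genes between IMQ and Ctrl was -0.51 without normalization and -0.60 with scaling to the spike-in controls. With spike-in scaling the members' median lay 1.18 above that of all named genes, against 1.096 with quantile normalization. Between IMQ and Ctrl, the median of the Rel subunits, inhibitors, and feedback targets stayed above 1 under all 6 scalings tried. The median of the receptor adaptors and kinases ranged from -0.26 with spike-in scaling to 0.27 with scaling to the 75th percentile. Between IMQ+DMD and IMQ, the class medians were 0.01, -0.23, -0.13, and -0.15 in the same order. That of the receptor adaptors and kinases ran from -0.07 to 0.10 over the 6 scalings, and those of the other classes stayed negative.

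**Figure D2:**
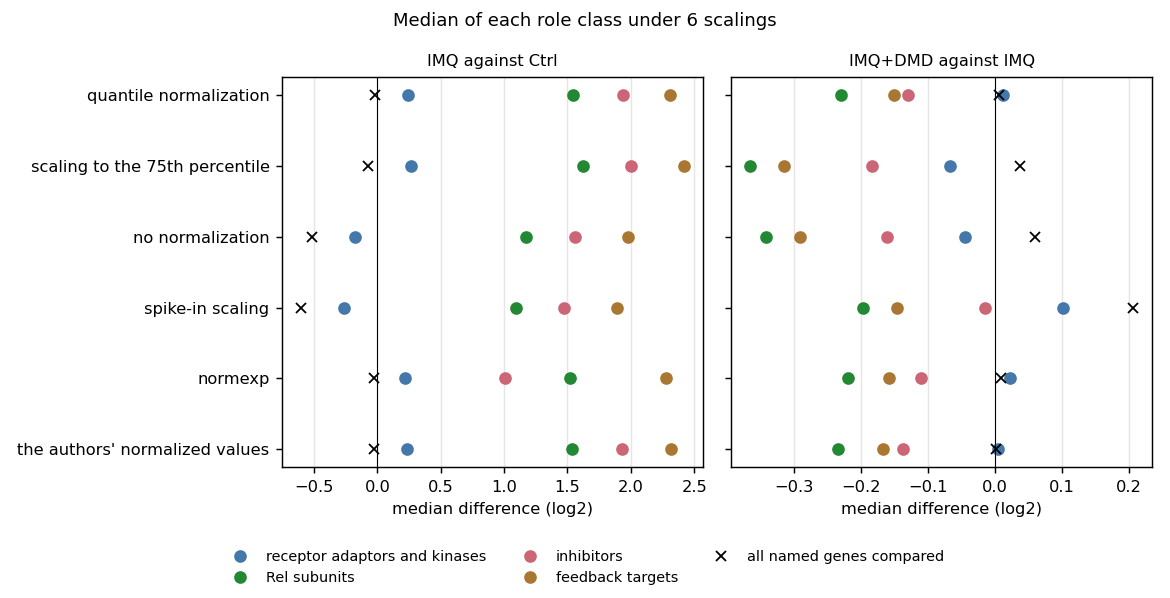
Median log2 difference (x axis) of each role class and of all named genes compared (crosses) under 6 ways of scaling the arrays (rows), for IMQ against Ctrl (left) and IMQ+DMD against IMQ (right). On the left, the adaptors and kinases change side between scalings while the other classes stay above 1. On the right, no class median reaches -0.4 or 0.2.

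Promoters of the members were searched for the NF-κB consensus, the binding sequence of Rel dimers in its usual 10-letter form, on both strands and with overlapping matches kept. RefSeq windows on GRCh38.p14, from 250 bases before to 50 bases after an annotated start, were at hand for 36 of the 40 members and not for IKBKB, NFKBIE, RELB, and RIPK2. A match was found for 16 of these 36 members, 44.4%, and for 7.09% of the 27305 genes in the same set of windows. By window it was 23 of 62 for the members and 5.91% of all 35116. The list was made of NF-κB pathway genes, feedback targets included, and was chosen with earlier results known. These shares therefore describe the list and are no independent comparison with all genes. Matches were found for 9 of 10 inhibitors (all but TNIP2), 3 of 4 Rel subunits (NFKB1, NFKB2, and REL), 2 of 8 feedback targets (BIRC3 and CFLAR), and 2 of 14 receptor adaptors and kinases (MAP3K8 and TRAF3). The match of BCL3 lay 2 bases after the start, and every other member had at least 1 match before its start.

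Stretches of 120 bases before the most upstream start are shown for 9 of the members that held a match there and were at least 2-fold higher after IMQ, since they let the shared word be compared between a kinase, Rel subunits, inhibitors, and feedback targets. They are written 5′ to 3′ on the gene's strand, capitals mark the consensus matches, and they end at the base before the start except for NFKBIZ and BIRC3, where they end 121 and 101 bases before it.
MAP3K8, chr10:30433901-30434020, plus strand: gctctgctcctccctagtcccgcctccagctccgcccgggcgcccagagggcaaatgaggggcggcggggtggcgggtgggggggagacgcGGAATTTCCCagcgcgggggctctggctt
NFKB1, chr4:102501239-102501358, plus strand: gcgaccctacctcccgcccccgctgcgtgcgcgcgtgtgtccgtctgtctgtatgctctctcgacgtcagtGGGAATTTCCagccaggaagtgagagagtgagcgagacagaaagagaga
REL, chr2:60881454-60881573, plus strand: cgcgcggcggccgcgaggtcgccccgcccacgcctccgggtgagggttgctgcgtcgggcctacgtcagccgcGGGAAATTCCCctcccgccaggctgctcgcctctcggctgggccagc
NFKBIA, chr14:35404750-35404869, minus strand: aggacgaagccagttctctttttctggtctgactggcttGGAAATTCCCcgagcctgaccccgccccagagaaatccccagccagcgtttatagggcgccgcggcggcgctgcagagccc
NFKBIZ, chr3:101827750-101827869, plus strand: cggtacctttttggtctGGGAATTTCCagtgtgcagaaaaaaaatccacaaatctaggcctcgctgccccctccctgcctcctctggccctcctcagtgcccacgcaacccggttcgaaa
TNFAIP3, chr6:137867139-137867258, plus strand: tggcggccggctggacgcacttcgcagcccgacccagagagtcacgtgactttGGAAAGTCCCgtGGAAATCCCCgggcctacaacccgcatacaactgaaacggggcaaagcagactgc
TNIP1, chr5:151081035-151081154, minus strand: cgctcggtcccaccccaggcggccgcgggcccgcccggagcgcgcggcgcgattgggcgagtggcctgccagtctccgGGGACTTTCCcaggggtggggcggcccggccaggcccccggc
BIRC3, chr11:102317264-102317383, plus strand: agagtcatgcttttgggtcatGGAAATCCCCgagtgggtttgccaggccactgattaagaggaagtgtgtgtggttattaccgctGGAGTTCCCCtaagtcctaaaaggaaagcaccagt
CFLAR, chr2:201118596-201118715, plus strand: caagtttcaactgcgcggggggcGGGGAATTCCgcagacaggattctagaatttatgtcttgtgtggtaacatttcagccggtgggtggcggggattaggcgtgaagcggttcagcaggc

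In TNFAIP3 and BIRC3 a pair of matches stood in the same stretch, and in REL a pair of matches on opposite strands overlapped. The match began 81 bases before the start in NFKBIA, 49 in NFKB1, 47 in REL, and 42 in TNIP1. For the 16 members with a match, the median of the IMQ minus Ctrl differences was 2.01 (log2), and 13 of them were at least 2-fold higher. For the 20 members with a window and no match, the median was 0.38, and 7 were at least 2-fold higher. The share with a match differed by role, from 2 of 14 receptor adaptors and kinases to 9 of 10 inhibitors. Match and role therefore cannot be told apart here. The feedback targets held a match in 2 of 8 and were at least 2-fold higher after IMQ in 7 of 8. The ranges overlapped, from 0.53 (CYLD) to 4.42 (BIRC3) with a match and from -0.45 (MYD88) to 6.07 (TNFAIP6) without. A match in these windows is a description of letters and not a measured binding site, and binding further away was not examined.

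**Figure D3:**
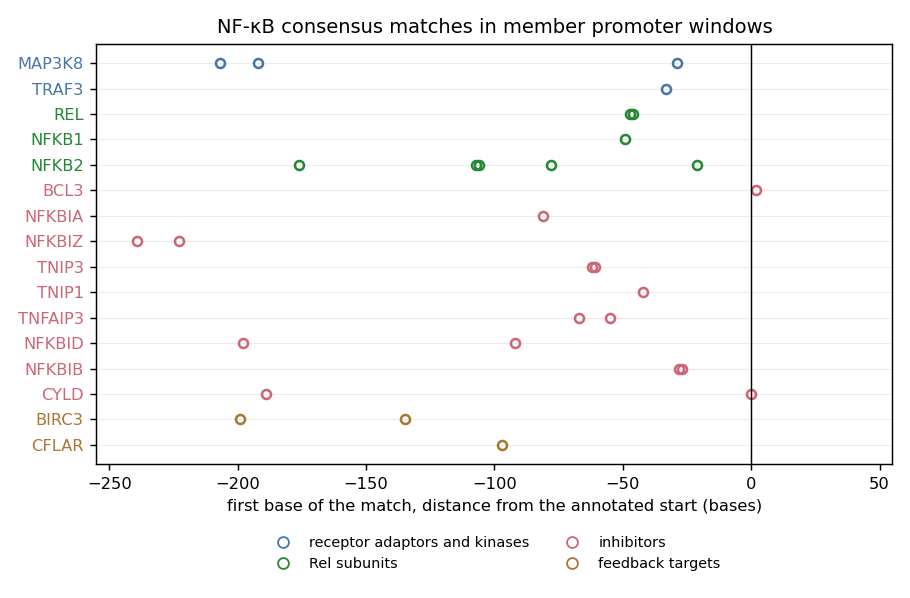
Position of the first base of each NF-κB consensus match relative to the annotated start (x axis, bases; vertical line at 0) in the promoter windows of the 16 members with a match (y axis), colored by role. Members with several windows have the matches of all windows in their row, and the only match of BCL3 lies 2 bases after the start.

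Among the receptor adaptors and kinases, IRAK2 stood apart from the rest. IRAK2, a kinase of the MyD88 complex read at chr3:10285302-10285361 (hg19, as are all probe positions here), had a level of 8.49 on Ctrl, 12.45 on IMQ, and 12.32 on IMQ+DMD. It was 15.6-fold higher after IMQ, a log2 difference of 3.96 ± 0.08, where the error is a technical SD taken from probes printed 10 times on each array and covers noise within an array only. MAP3K8, the kinase TPL2 that feeds the ERK branch, had a level of 8.05 on Ctrl, 9.86 on IMQ, and 9.86 on IMQ+DMD. Its difference between IMQ and Ctrl was 1.81 ± 0.09. Both genes were thus high on each array that received IMQ. The adaptor TRAF3 lay just inside the 2-fold limit, with 8.98 on Ctrl, 9.94 on IMQ, and 9.98 on IMQ+DMD.

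The other adaptors and kinases did not reach 2-fold between IMQ and Ctrl. MYD88, the adaptor itself, measured 11.42 on Ctrl, 10.97 on IMQ, and 10.88 on IMQ+DMD, lower after IMQ by 0.45 ± 0.07 and, with spike-in scaling, at -0.94. TRAF6 measured 9.83, 9.66, and 9.68 on the same arrays, and MAP3K7, which encodes TAK1, measured 11.63, 11.92, and 11.94. With spike-in scaling, the differences of TRAF6 and IKBKB between IMQ and Ctrl were -0.70 and -0.67. The median of all named genes compared was -0.60 under that scaling, so TRAF6 and IKBKB lay near it and MYD88 below it. The IκB kinase genes differed from each other, since CHUK (IKKα) was higher after IMQ by 0.58 ± 0.07 while IKBKB (IKKβ) was lower, at -0.17 ± 0.07. The regulatory subunit IKBKG (NEMO) differed by 0.24 ± 0.07, was lower without normalization and with spike-in scaling, and has a pseudogene copy whose transcripts its probe may also bind. Of the other members of the class, RIPK2 and IRAK1 were higher by 0.81 and 0.47, IKBKE was lower (-0.38), and IRAK3, IRAK4, TRAF2, and MAP3K14 differed by between -0.05 and 0.25. The direction of IRAK3, IRAK4, MAP3K7, and TRAF2 changed with the scaling, as did that of IKBKG.

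**Figure D4:**
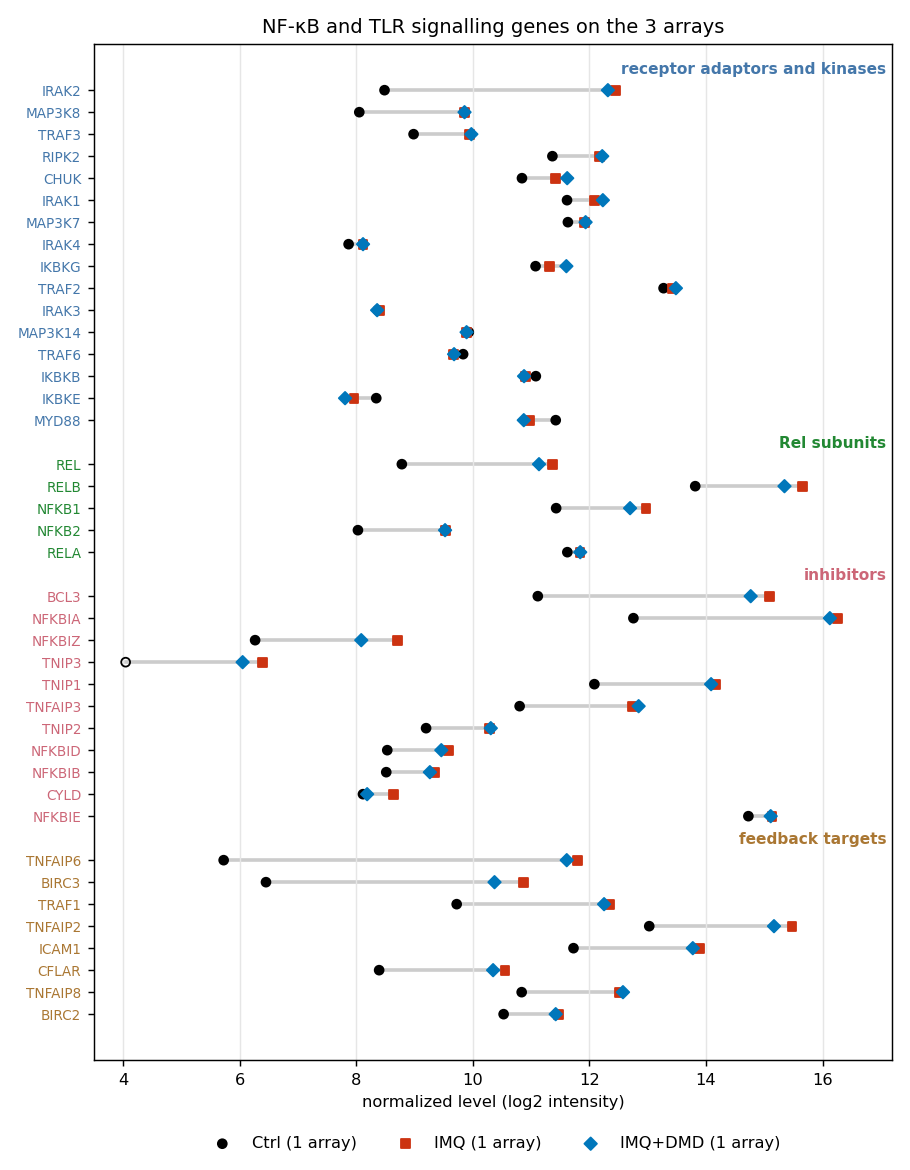
Normalized log2 level (x axis) of each member (y axis, grouped by role and ordered within a role by the difference between IMQ and Ctrl) on the Ctrl, IMQ, and IMQ+DMD arrays, 1 array each. An open symbol, seen only for TNIP3 on Ctrl, is a level not well above background and stands at the floor. For most inhibitors and feedback targets the 2 treated arrays lie together, to the right of Ctrl.

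Of the Rel subunits, the transcripts of 4 were higher after IMQ and RELA stayed near its Ctrl level. REL, which encodes c-Rel, had a level of 8.78 on Ctrl, 11.37 on IMQ, and 11.14 on IMQ+DMD, so that it was 5.99-fold higher after IMQ (2.58 ± 0.08). RELB, a subunit of the non-canonical branch, measured 13.82 on Ctrl, 15.65 on IMQ, and 15.35 on IMQ+DMD (1.83 ± 0.06 between IMQ and Ctrl). NFKB1, the gene of p105 and p50, measured 11.43, 12.97, and 12.70 on these arrays, with a difference of 1.54 ± 0.06 between IMQ and Ctrl. On IMQ+DMD it was 1.27 ± 0.06 above Ctrl, but under 2-fold without normalization (0.78) and with spike-in scaling (0.84). REL, RELB, and NFKB1 lay between Ctrl and IMQ on the IMQ+DMD array, closer to IMQ. NFKB2, the gene of p100 and p52, measured 8.03 on Ctrl, 9.54 on IMQ, and 9.52 on IMQ+DMD (1.51 ± 0.09, or 0.99 with spike-in scaling). RELA, which encodes p65, measured 11.62 on Ctrl, 11.84 on IMQ, and 11.84 on IMQ+DMD, and its difference of 0.22 ± 0.06 changed sign without normalization and with spike-in scaling.

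The class listed as inhibitors included some of the largest differences between IMQ and Ctrl. It was set as a list of names, nuclear IκB proteins included, and whether each member acted as an inhibitor here was not tested. NFKBIA, the gene of IκBα that holds NF-κB in the cytoplasm, was printed in 10 spots and had a level of 12.76 on Ctrl, 16.26 on IMQ, and 16.13 on IMQ+DMD. The SD of its own 8 to 10 spots kept was 0.05 on each array, against a difference of 3.51 between IMQ and Ctrl, which is 11.4-fold. BCL3, a nuclear IκB protein, was 15.7-fold higher after IMQ, with levels of 11.12 on Ctrl, 15.08 on IMQ, and 14.77 on IMQ+DMD. Both were thus high on the IMQ and IMQ+DMD arrays alike. NFKBIZ, the gene of the nuclear protein IκBζ, measured 6.27 on Ctrl, 8.71 on IMQ, and 8.09 on IMQ+DMD (2.44 ± 0.19 between IMQ and Ctrl). NFKBID, a further nuclear IκB protein, measured 8.53, 9.59, and 9.46 on these arrays and passed 2-fold after IMQ (1.06 ± 0.08) but not on IMQ+DMD against Ctrl (0.93 ± 0.08). It was also under 2-fold after IMQ without normalization (0.63), with spike-in scaling (0.55), and after normexp (0.94). The cytoplasmic inhibitors NFKBIB and NFKBIE differed less, by 0.83 ± 0.08 and 0.41 ± 0.06.

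A separate arm of inhibition removes or binds the ubiquitin chains through which TRAF6 signals. TNFAIP3, the ubiquitin-editing enzyme A20, had a level of 10.80 on Ctrl, 12.74 on IMQ, and 12.85 on IMQ+DMD, and was 3.83-fold higher after IMQ (1.94 ± 0.06). Its partner TNIP1 was 4.23-fold higher, with levels of 12.09, 14.17, and 14.09, and TNIP2 was 2.13-fold higher, with 9.20, 10.29, and 10.31, although TNIP2 was under 2-fold without normalization (0.69) and with spike-in scaling (0.61). A20 and these partners were therefore higher on both arrays with IMQ than on Ctrl. TNIP3 was not well above background on Ctrl and measured 6.39 on IMQ and 6.05 on IMQ+DMD. Against the Ctrl array's floor of 4.04, the lowest level among probes well above background there, it was at least 5.09-fold higher after IMQ with quantile normalization. This bound depended on the processing, since the log2 difference was 1.66 with spike-in scaling and 0.94, under 2-fold, after normexp background correction. The deubiquitinase CYLD measured 8.12 on Ctrl, 8.64 on IMQ, and 8.19 on IMQ+DMD, and its difference of 0.53 ± 0.10 between IMQ and Ctrl changed sign with spike-in scaling.

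The feedback targets held the member with the largest difference, TNFAIP6. This gene of a secreted hyaluronan-binding protein had a level of 5.73 on Ctrl, 11.80 on IMQ, and 11.61 on IMQ+DMD, a 67.3-fold difference between IMQ and Ctrl (6.07 ± 0.21, or 4.99 after normexp). BIRC3, a ubiquitin ligase that restrains cell death, measured 6.45 on Ctrl, 10.87 on IMQ, and 10.37 on IMQ+DMD and was 21.4-fold higher after IMQ (4.42 ± 0.18, or 3.67 after normexp). Its neighbor BIRC2, which encodes the related cIAP1, measured 10.53, 11.47, and 11.42 and was 1.92-fold higher. The adaptor TRAF1 measured 9.72 on Ctrl, 12.34 on IMQ, and 12.25 on IMQ+DMD (2.62 ± 0.07). Each of these genes had its lowest level on the array without IMQ.

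ICAM1, an adhesion molecule for leukocytes, was printed in 10 spots and measured 11.73 on Ctrl, 13.89 on IMQ, and 13.78 on IMQ+DMD. Its difference of 2.16 between IMQ and Ctrl stood against a spot SD of 0.03 to 0.04. TNFAIP2 had a level of 13.03 on Ctrl, 15.48 on IMQ, and 15.17 on IMQ+DMD (2.45 ± 0.06). TNFAIP8 had a level of 10.84 on Ctrl, 12.51 on IMQ, and 12.58 on IMQ+DMD (1.67 ± 0.07). CFLAR, the gene of the caspase-8 inhibitor c-FLIP, measured 8.39, 10.55, and 10.35 (2.16 ± 0.08). With the probes used, 7 of the 8 genes in this class passed 2-fold and BIRC2 did not.

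A second look within genes came from the 8 members with more than 1 probe. CFLAR had 4 probes, of which those at chr2:202000731-202000790, chr2:202031892-202031951, and chr2:202025198-202025257 gave differences of 2.16, 2.26, and 2.14 between IMQ and Ctrl. The fourth, at chr2:202030660-202030717, gave 0.38 ± 0.07, so the probes of this gene differed in size of change. It was the brightest CFLAR probe on Ctrl, at 9.64 beside 8.39 for the probe used. Where probes were chosen by mean log2 value it took that probe's place, and CFLAR did not pass 2-fold. MAP3K8 also split, with 1.81 ± 0.09 at chr10:30749980-30750039 and 0.53 ± 0.12 at chr10:30728298-30728357, where the file names a different transcript. For IKBKB, the probe used gave -0.17 ± 0.07 and a dimmer probe gave 0.67 ± 0.24. The remaining genes with 2 probes kept their sign between probes: IRAK1 (0.47 and 0.34), NFKBIB (0.83 and 1.01), RELA (0.22 and 0.23), TNFAIP8 (1.67 and 1.49), and TRAF2 (0.15 and 0.31). Probes were not assigned to exons or untranslated regions here.

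The IMQ+DMD array was next set against the IMQ array to see how the same genes stood when DMD was added. With the probes used, the members' differences ran from -0.62 for NFKBIZ to 0.29 for IKBKG, so none reached 2-fold. By more than 2 technical SDs, 11 members were lower and 3 were higher, beside 14.4% lower and 16.7% higher among all named genes compared. Under all 6 scalings, 18 members were lower and 3 were higher, beside 21.7% and 38.4% of all named genes, and 19 changed side. The 11 lower members were 3 Rel subunits (NFKB1, RELB, and REL), 4 inhibitors (NFKBIA, NFKBIZ, BCL3, and CYLD), and 4 feedback targets (TNFAIP2, TNFAIP6, BIRC3, and CFLAR), and each stayed lower under all 6 scalings. The technical SD is that of single spots, so it overstates the error of NFKBIA and ICAM1, whose levels are means of 8 to 10 spots. ICAM1 differed by -0.11 and was lower under all 6 scalings, but with a technical SD of 0.06 it was not counted. Its own spots had an SD of 0.04 on IMQ and 0.03 on IMQ+DMD. CFLAR depended on the probe, since the probe at chr2:202030660-202030717 was higher on IMQ+DMD than on IMQ by 0.20 ± 0.07. No receptor adaptor or kinase was among the lower members with the probes used. However, the dimmer probe of the kinase gene IKBKB gave -0.81 ± 0.25, farther from 0 than any member's probe used. The other probe of NFKBIB gave -0.29 ± 0.08. The 3 higher members were CHUK, IKBKG, and IRAK1, of which IRAK1 changed side with scaling to the 75th percentile. The third member higher under all 6 scalings was IRAK4, whose difference was 0.00 with quantile normalization.

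With quantile normalization and the probes used, NFKBIZ had the largest difference between IMQ+DMD and IMQ, at -0.62 ± 0.10, which is 1.54-fold lower. Over the 6 scalings it ran from -0.62 to -0.39. BIRC3 followed at -0.50 ± 0.07, with a range of -0.62 to -0.45, lay farther from 0 than NFKBIZ with scaling to the 75th percentile, without normalization, and with spike-in scaling, and was 15.1-fold above Ctrl. CYLD was lower by 0.46 ± 0.10 and stood near its Ctrl level, at 0.07 ± 0.11 against Ctrl. For the other members that were lower, the difference was small beside the one that IMQ made. BCL3 was lower by 0.32 ± 0.06 and still 12.6-fold above Ctrl, RELB was lower by 0.30 ± 0.06 and 2.89-fold above Ctrl, and TNFAIP2 was lower by 0.31 ± 0.06 and 4.41-fold above Ctrl. NFKB1, REL, CFLAR, TNFAIP6, and NFKBIA were lower by 0.14 to 0.27. MAP3K8 (0.00 ± 0.07), NFKB2 (-0.01 ± 0.07), RELA (0.00 ± 0.06), and TNIP2 (0.02 ± 0.07) differed by less than the technical noise with the probe used. The second MAP3K8 probe was lower by 0.33 ± 0.11. TNFAIP3 differed by 0.10 ± 0.06 and changed side between scalings.

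**Figure D5:**
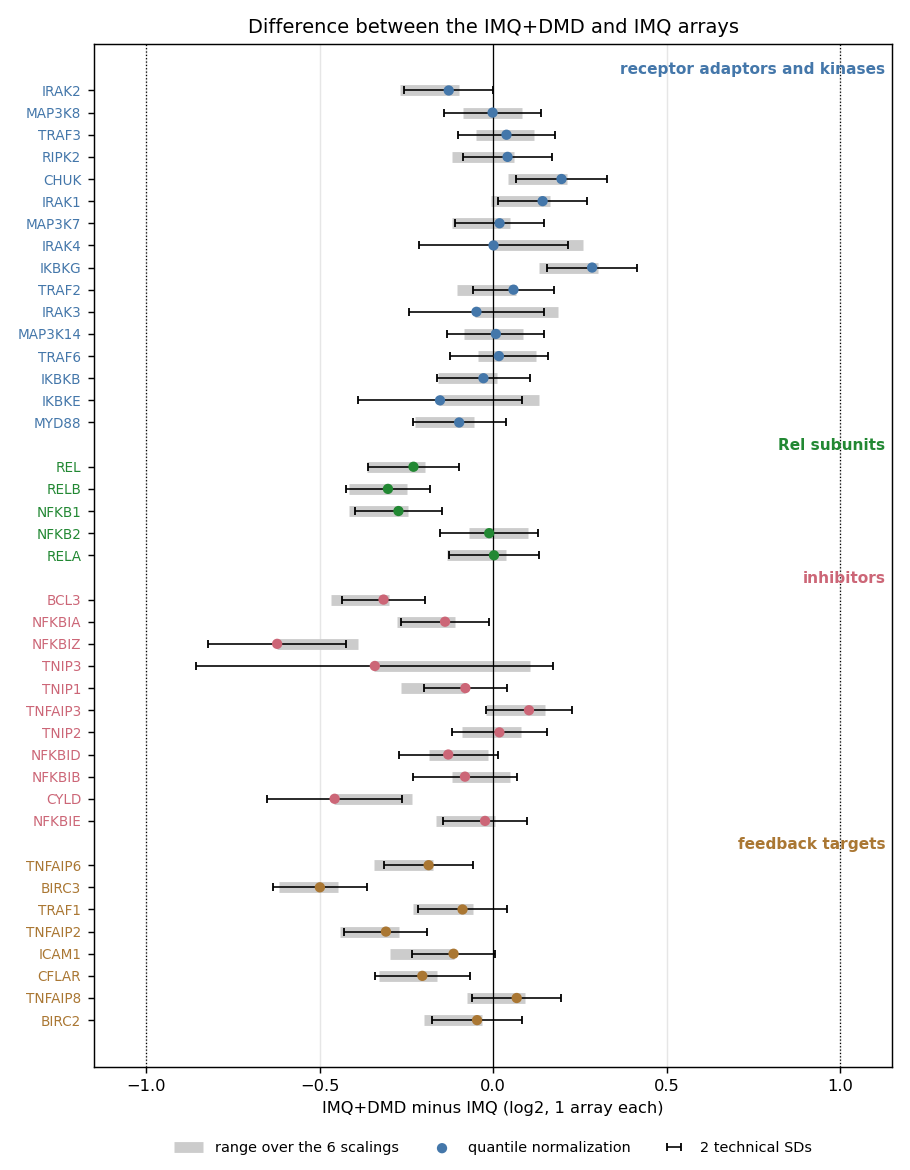
Difference between the IMQ+DMD and IMQ arrays (x axis, log2; 1 array each) for every member (y axis, grouped by role), with 2 technical SDs as error bars and the range over 6 scalings as grey bars, and dotted lines at 2-fold. NFKBIZ, BIRC3, and CYLD lie farthest to the left, IKBKG lies farthest to the right at 0.29, and no member reaches a dotted line.

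A further list of pathway genes outside the 40 was read the same way, and 39 of its 40 genes were found on the array. After IMQ, 2 of 39 (5.13%) were at least 2-fold higher and 3 of 39 (7.69%) at least 2-fold lower, with a median of -0.09. Among all named genes compared, the shares were 4.23% and 3.67%. TLR7, the receptor of IMQ, measured 9.24 on Ctrl, 6.51 on IMQ, and 5.75 on IMQ+DMD. With quantile normalization it was 6.62-fold lower after IMQ and 11.2-fold lower on IMQ+DMD than in Ctrl. Over the 6 scalings the log2 difference of TLR7 ran from -3.39 to -2.07 after IMQ and from -3.76 to -2.44 on IMQ+DMD against Ctrl. TLR8 measured 5.57 on Ctrl and was not well above background on the other arrays, which with quantile normalization puts it at least 2.003-fold lower after IMQ and at least 2.82-fold lower on IMQ+DMD. Over the 6 scalings its log2 difference ran from -1.78 to -0.43 after IMQ and from -1.73 to -0.54 on IMQ+DMD against Ctrl, so neither bound nor the 2-fold call held under all of them. These related endosomal receptors were thus both higher on Ctrl than on the arrays with IMQ. ZC3H12A, an RNase that degrades cytokine transcripts, measured 10.16, 12.94, and 12.79 (2.78 between IMQ and Ctrl), and TANK, an adaptor that binds TRAF proteins, measured 11.63, 12.86, and 13.05 (1.22). Over the 6 scalings TANK ran from 0.76 to 1.29 after IMQ and from 0.92 to 1.41 on IMQ+DMD against Ctrl. Its 2-fold calls therefore did not hold under all of them. PDLIM2, a nuclear ubiquitin ligase for p65, measured 10.61 on Ctrl, 9.53 on IMQ, and 8.87 on IMQ+DMD (-1.07 after IMQ).

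CD14, a TLR co-receptor, passed 2-fold with quantile normalization on IMQ+DMD against Ctrl (-1.23) and not after IMQ (-0.73, and as low as -1.10 under another scaling), with levels of 14.44 on Ctrl, 13.71 on IMQ, and 13.21 on IMQ+DMD. TLR3, the double-stranded RNA receptor, measured 5.50 on Ctrl and was not well above background on the others, at least 1.91-fold lower after IMQ and at least 2.69-fold lower on IMQ+DMD with quantile normalization, and its differences reached -0.45 and -0.49 under other scalings. All 7 of these genes kept their direction against Ctrl under the 6 scalings. Between IMQ+DMD and IMQ, 0 of the 37 genes that could be compared differed by 2-fold, and their median was -0.01. Among all named genes compared, 1.2% were at least 2-fold higher and 1.24% lower. With quantile normalization, TLR7 (-0.76) and PDLIM2 (-0.66) lay at the lower end of the range of these pathway genes, and PELI2 lay at its upper end (0.31). Over the 6 scalings TLR7 ran from -0.76 to -0.31, PDLIM2 from -0.67 to -0.50, and PELI2 from 0.26 to 0.48. On IMQ+DMD against Ctrl, 2 of 39 (5.13%) were at least 2-fold higher and 5 of 39 (12.8%) at least 2-fold lower. The shares of all named genes compared were 3.14% and 4.9%.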

How the data were processed

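Total RNA of 3 cultures of THP-1 macrophages (Ctrl, IMQ, and IMQ+DMD) was labeled with Cy3 and hybridized, 1 array each. The authors deposited the scanner output of Feature Extraction 10.5.1.1, with a background-subtracted intensity for each spot, and a table of raw and quantile-normalized intensity for each probe. Here, the deposited intensity of transcript spots, without 52 to 82 spots per array marked as outliers, was quantile normalized (limma 3.58.1, R 4.3.3), and the log2 values of the spots of each probe were averaged. The result differed from the authors' normalized intensity by a median of at most 0.0014 log2 units. A probe not well above background was raised to the array's floor unless it was already brighter, and a gene was compared where its probe was well above background on the brighter array. For each gene, the probe with the highest mean of the authors' normalized intensities was used. No test was run, because the 1 array per group gives no spread, and this number of arrays limits the precision. The technical SD came from 300 probes printed in 10 spots. It is the spread of single spots and was not reduced for probes averaged over several spots. The code that computes differences was run on Ctrl values with added spot noise and known changes put in. That run held no variation between arrays or cultures, so it checks the code and not the differences reported.

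All members were named, with values on each array for those at least 2-fold different in any comparison and for those that define each class. Of the other pathway genes, those at least 2-fold different in any comparison were named, and PELI2 was added after its value was seen. The members, classes, and lists were chosen with earlier results of these data known. The alternatives were the scaling to the 75th percentile, no normalization, spike-in scaling, normexp with an offset of 50, the authors' normalized values, outlier spots kept, other handling of dim probes, limits of 1.5-fold and 4-fold, and other choices of probe. Later steps ran in Python 3.11.15 (pandas 2.3.3, numpy 2.4.6), and matplotlib 3.10.9 drew the plots. Promoter windows were those of RefSeq, and probe positions are those of the scanner files.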

Additional observations from a re-analysis of the deposited data

How the results depend on the processing

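Counts of members at least 2-fold higher lay between 18 and 21 for IMQ against Ctrl and between 18 and 20 for IMQ+DMD against Ctrl under every alternative at the 2-fold limit. The shares of all named genes compared lay between 1.58% and 6.29% and between 1.55% and 5.24%. At a 4-fold limit the counts were 13 and 12, beside 0.92% and 0.64% of all named genes. For IMQ+DMD against IMQ both counts were 0 under every alternative but the 1.5-fold limit. There 1 member (NFKBIZ) was lower, beside 5.41% of all named genes. Without normalization, 1 member (MYD88) was at least 2-fold lower on IMQ+DMD than on Ctrl, beside 10.4% of all named genes. The members' median for IMQ against Ctrl was 0.58 under spike-in scaling, 0.66 without normalization, 0.94 after normexp, and 1.005 where probes were chosen by mean log2 value. For IMQ+DMD against Ctrl it was 0.63, 0.57, 0.89, and 0.96 in this order. For IMQ+DMD against IMQ it was -0.14 with scaling to the 75th percentile and 0.024 with spike-in scaling, so its sign depended on the scaling. The median of all named genes there was 0.04 and 0.21. The members' median minus that of all named genes was negative under all 6 scalings, from -0.18 to -0.07. This describes a list chosen with earlier results known. Scaling also moved the split of all named genes between IMQ and Ctrl, from 1307 higher and 1133 lower to 505 higher and 6258 lower with spike-in scaling. Which of these scalings is nearest to the RNA content of the cells was not tested. Of 1198 recomputed gene differences, 1132 kept their direction and 311 moved by more than 1 technical SD. Several of the pooled alternatives left most members' values nearly unchanged, so these counts say little about how firm a direction is. Over the 6 scalings alone, 33 of 40 members kept their direction for IMQ against Ctrl. It was 32 of 40 for IMQ+DMD against Ctrl and 21 of 40 for IMQ+DMD against IMQ. No paired analysis was possible because each group had 1 array, and for the same reason no array could be left out. The slide could not be used as a block, since all arrays were on 1 slide.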
